A study of Mus musculus with 15 samples.

Results

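Basement membranes are thin sheets of secreted matrix, and 10 genes that encode their main proteins or proteins bound to them were followed through ribosome profiling of mouse embryonic stem cells. They were chosen by name as long secreted proteins translated at the endoplasmic reticulum (ER) and were matched by transcript to GENCODE M21: the laminin chains Lama1, Lama5, Lamb1 and Lamc1, the type IV collagen chains Col4a1 and Col4a2, nidogen (Nid1), perlecan (Hspg2), fibronectin (Fn1) and Sparc. All 10 were in the table of 21727 transcripts, and all 10 were among the 10085 transcripts that had a depth-scaled count (CPM) over 2 in no fewer than 14 of the 15 libraries. Their coding sequences (CDS) were 3735 to 13149 nt long except for that of Sparc, which had 906 nt, against a median of 1438.5 nt over all tested transcripts. Sparc therefore went against the description as long proteins, since 25.4% of tested transcripts had a shorter CDS, whereas 90.6% to 99.7% were shorter than the other 9.

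Ribosome-protected fragments (RPFs, or footprints) are the short mRNA stretches covered by translating ribosomes, and their count on a CDS measures how many ribosomes sat on it. The cells were E14Tg2a.4 mouse embryonic stem cells grown without feeder cells on gelatin with LIF and treated with cycloheximide before lysis. 3 lines were compared: untagged cells (WT), cells with a 3xFLAG tag added to both copies of the endogenous Rps27 gene (Rps27-FLAG, labelled eS27-FLAG) and cells with the same tag on Rps27l (Rps27l-FLAG, labelled eS27L-FLAG), a paralog of the same small-subunit ribosomal protein. Each line had 3 independently selected clones, and each clone gave 1 library of total RPFs (9 libraries). The 6 tagged clones also gave 1 library each of RPFs from ribosomes pulled down with anti-FLAG beads (IP RPFs). No IP library from untagged cells was used here. Replicate number 1, 2 or 3 marked the clone within a line. By the study's methods it also marked the pool in which libraries were prepared, and by its sample table the sequencing batch. These cannot be told apart. The libraries held 6313827 to 8064166 counts for total RPFs and 3972152 to 6673935 for IP RPFs, of which the 10 genes took 0.630% to 0.898%. Footprints were not set against mRNA levels here, so a change in mRNA and a change in ribosomes per mRNA give the same reading.

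Laminins are heterotrimers of an alpha, a beta and a gamma chain that assemble in the ER and polymerise outside the cell into the first layer of a basement membrane. Type IV collagen, built here from the products of Col4a1 and Col4a2, forms a second network, and nidogen and the heparan sulfate proteoglycan perlecan bind both. Fibronectin is a secreted glycoprotein that integrins assemble into fibrils, and Sparc is a collagen-binding glycoprotein. In the early embryo these proteins form the basement membrane under the epiblast, and parietal endoderm is known for secreting very large amounts of laminin and type IV collagen. Their mRNAs are brought to the ER membrane by an N-terminal signal peptide, whose hydrophobic core is often rich in leucine.

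The start of a CDS carries that signal, so codons 1 to 30 are shown for 4 genes taken from the groups above, read from the GENCODE M21 transcripts and written 5′ to 3′, with every leucine codon in capitals. They held 7, 6, 8 and 4 leucine codons.
Fn1: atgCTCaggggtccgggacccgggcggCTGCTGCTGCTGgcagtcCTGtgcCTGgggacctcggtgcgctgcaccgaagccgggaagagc
Lama1: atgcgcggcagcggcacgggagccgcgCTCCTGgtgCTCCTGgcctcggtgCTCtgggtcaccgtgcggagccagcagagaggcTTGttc
Col4a1: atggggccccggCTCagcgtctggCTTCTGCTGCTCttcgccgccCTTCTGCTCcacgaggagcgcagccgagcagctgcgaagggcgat
Sparc: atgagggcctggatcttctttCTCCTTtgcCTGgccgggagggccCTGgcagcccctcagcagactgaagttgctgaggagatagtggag
Across all 10 genes, codons 2 to 30 held 4 to 9 leucine codons, against a median of 3 and a 95th percentile of 7 over the tested transcripts.

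The collagen chains stood apart in codon content. Their triple helix is made of repeats of glycine followed by 2 other residues, and glycine codons made up 28.6% of the Col4a1 CDS (478 of 1669) and 27.6% of the Col4a2 CDS (471 of 1707), against a median of 6.22% in tested transcripts. Proline codons made up 19.3% and 16.1%. The longest unbroken run of such repeats had 40 repeats in Col4a1 and 66 in Col4a2, and codons 43 to 72, the first of the run in Col4a1, are shown with the glycine codon of each repeat in capitals.
Col4a1 repeat: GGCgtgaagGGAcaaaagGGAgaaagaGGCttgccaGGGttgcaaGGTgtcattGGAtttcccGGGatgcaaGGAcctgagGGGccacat
Cysteine codons, which mark proteins with many disulfide bonds, made up 7.11% of Lamb1, 6.22% of Lamc1, 5.84% of Lama5, 5.29% of Lama1, 4.29% of Hspg2, 4.02% of Nid1, 4.97% of Sparc and 2.58% of Fn1, against a median of 1.84%. In Col4a1 and Col4a2 they made up 1.20% and 1.23%.

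In GRCm38 the genes lie on 8 chromosomes, and only the collagen pair are neighbours. Lama1 spans chr17:67697259-67822647 on the plus strand with 63 coding exons, Lama5 chr2:180176373-180225859 on the minus strand with 79, Lamb1 chr12:31265234-31329493 on the plus strand with 33, and Lamc1 chr1:153218922-153332786 on the minus strand with 28. Nid1 spans chr13:13437551-13512269 on the plus strand with 20 coding exons, Hspg2 chr4:137468803-137570629 on the plus strand with 97, Fn1 chr1:71585524-71653175 on the minus strand with 46, and Sparc chr11:55395421-55423183 on the minus strand with 9. Col4a1 (chr8:11198423-11312826, minus strand, 52 coding exons) and Col4a2 (chr8:11312805-11449287, plus strand, 47 coding exons) are transcribed away from each other, and the annotated start of one lies inside the first exon of the other. The plus strand of chr8:11312801-11312830 in RefSeq's GRCm38.p6 promoter sequences is shown because both genes begin in it, with the 22 bases between and including the 2 starts in capitals.
Col4a1 and Col4a2 start: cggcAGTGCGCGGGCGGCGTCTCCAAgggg

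Levels between genes were compared as footprint density, the normalized CPM per kb of counted CDS. Fn1 had by far the densest coverage, 408 ± 80.1 CPM per kb (SD, n = 9 total libraries), and its CPM ranked 6 among 10083 transcripts. Lamc1 followed at 222 ± 26.0 and Sparc at 220 ± 18.0, which could not be ordered, since Lamc1 was the higher in 5 of 9 libraries. Below them came Lamb1 (127 ± 17.1), Nid1 (115 ± 23.4), Hspg2 (94.3 ± 5.48) and Lama5 (75.9 ± 10.9), whose ranges over libraries overlapped between neighbours, although Hspg2 exceeded Lama5 in each of the 9 libraries. Lama1 lay clearly lower at 26.1 ± 4.73. The collagen chains were the least covered, Col4a1 at 15.5 ± 5.69 and Col4a2 at 8.05 ± 3.38, with overlapping ranges but Col4a1 the higher in 9 of 9 libraries. Ranges did not overlap between Fn1 and Lamc1, between Sparc and Lamb1, or between Lama5 and Lama1. Over 10083 ranked transcripts, the densities ran from rank 370 for Fn1 to rank 7826 for Col4a2.

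**Figure D1:**
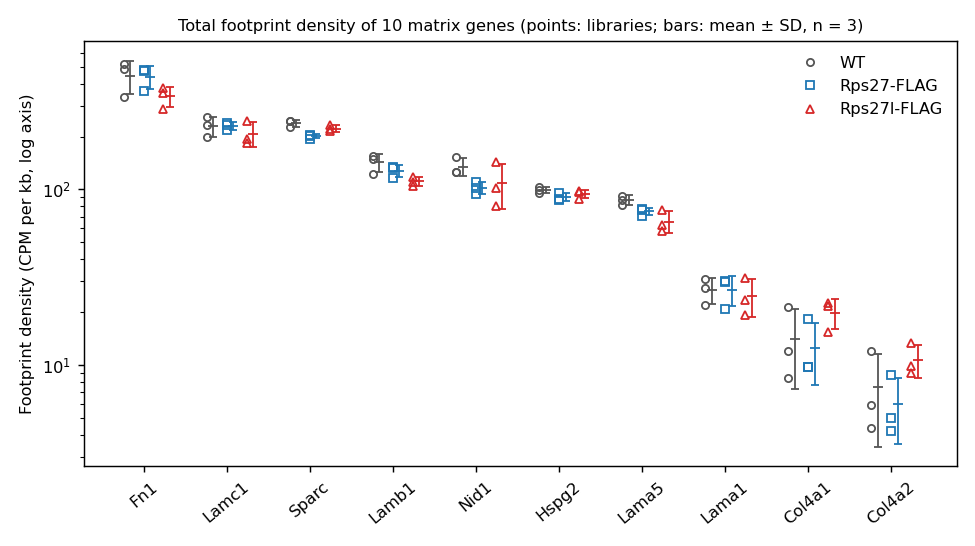
Footprint density (CPM per kb of counted CDS, log axis) of each gene in the 9 total RPF libraries, with points for single libraries by line and bars for the mean ± SD of 3 clones. Fn1 lies highest in each line, and Lama1, Col4a1 and Col4a2 lie lowest.

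Footprint densities differed between the chains of laminin and between those of type IV collagen. How many of each chain a collagen trimer holds was not taken into account. The alpha chains Lama1 and Lama5 together had 0.462 ± 0.0493 times the density of the gamma chain Lamc1 (SD, n = 9, range 0.365 to 0.525), and the beta chain Lamb1 had 0.574 ± 0.0579 times. Among the alpha chains Lama5 predominated, with Lama1 at 0.352 ± 0.0921 of its density. Col4a1 had 1.97 ± 0.215 times the density of Col4a2, and this ratio varied less than either chain did, staying between 1.69 and 2.33 while the Col4a2 density ranged from 4.18 to 13.4. The density of Nid1, whose product binds the gamma chain of laminin, was 0.517 ± 0.0770 of that of Lamc1. Other laminin alpha, beta and gamma chains and other type IV collagen chains were not counted in these ratios.

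Between lines, 15 such ratios were compared by two-sided exact permutation tests of 3 clones against 3, for which the smallest possible p is 0.1, so none could pass 0.05 whatever the values. The lowest adjusted p was 0.429. 3 ratios did not overlap between Rps27-FLAG and WT: the alpha chains to Lamc1 (0.443 ± 0.0191 against 0.500 ± 0.0364), Lamb1 to Lamc1 (0.554 ± 0.0201 against 0.623 ± 0.0201) and Nid1 to Lamc1 (0.443 ± 0.0139 against 0.591 ± 0.0457), each with exact p = 0.1. Any ratio without overlap has this p. The 3 ratios share Lamc1 and the same libraries, so they are not independent of each other. In replicates 1, 2 and 3, Nid1 to Lamc1 stood at 0.433, 0.437 and 0.459 in Rps27-FLAG and at 0.636, 0.545 and 0.590 in WT. In the IP libraries the alpha chains had 0.370 ± 0.0212 times the density of Lamc1 in Rps27-FLAG and 0.379 ± 0.0641 in Rps27l-FLAG, while the collagen ratio was 2.10 ± 0.160 and 1.81 ± 0.0671.

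**Figure D2:**
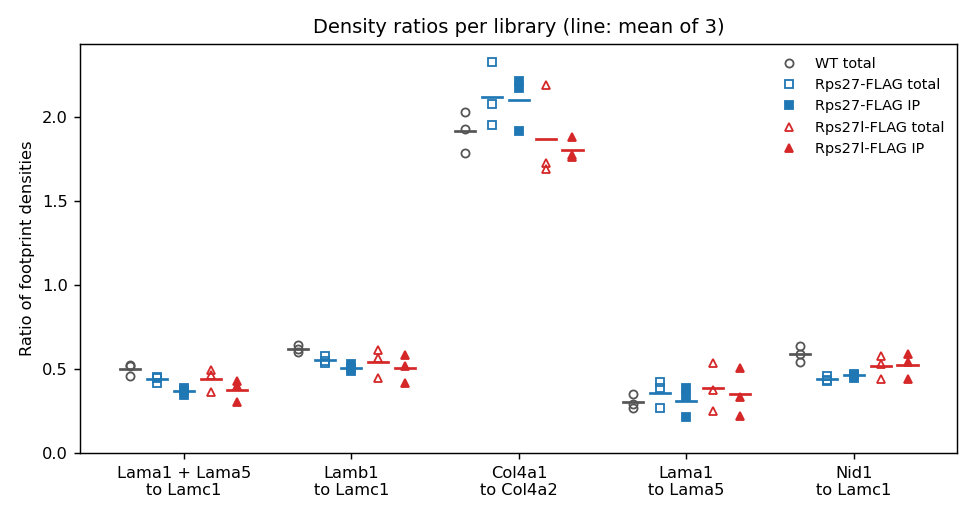
Ratios of footprint density between partner chains in each of the 15 libraries, by line and fraction, with a line at the mean of 3. Ratios of laminin chains to Lamc1 stay below 1, and Col4a1 exceeds Col4a2 in every library.

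The 10 genes differed widely in how much they varied over clones. Measured as the SD of log2 CPM over the 9 total libraries, Col4a2 (0.633) and Col4a1 (0.561) varied most and Hspg2 (0.0842) least. Transcripts of like mean CPM (within 1.5-fold) and like CDS length (the longer of a pair by at most 25%) had a median SD of 0.170 beside Col4a2, and 104 of those 108 varied less than it. For Col4a1 the median was 0.124 and 112 of 113 varied less. Nid1 (0.296, more than 84 of 87 like transcripts), Lama1 (0.270, more than 29 of 31), Lama5 (0.214, more than 5 of 5), Lamb1 (0.192, more than 12 of 14) and Lamc1 (0.172, more than 11 of 13) also lay high on this measure. For Fn1 (0.290) no transcript of like CPM had a like length, and all 14 of like CPM varied less. Sparc (0.118) and Hspg2 lay within their comparison sets, at more than 121 of 180 and 2 of 5. These sets could hold other genes of the 10: Lama5 and Hspg2 were each in the set of the other. The SD over 9 libraries includes differences between lines. Within lines the residual SD was 0.566 for Col4a2 (more than 104 of 108), 0.523 for Col4a1 (more than 112 of 113), 0.264 for Nid1 (more than 84 of 87), 0.303 for Lama1 (more than 29 of 31), 0.178 for Lamc1 (more than 12 of 13) and 0.133 for Lamb1 (more than 10 of 14). That of Lama5 was 0.132, more than 2 of 5 and just under their median of 0.133. Sparc, at 0.0562, exceeded 29 of 180.

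Part of this spread followed the replicate number. In a fit over the 9 total libraries with line and replicate number as terms, 7 of the 10 genes differed between replicate numbers at an adjusted p under 0.05, against 12.3% of all tested transcripts. Same-numbered clones of different lines were separate clones that shared a library pool and a sequencing batch. Whether either of these gave the differences was not tested. By the fit over lines, 5 genes were higher in replicates 2 and 3 than in replicate 1, and the collagen chains were lower. Lama1 did not follow this in Rps27l-FLAG, at 216, 178 and 288 normalized CPM in replicates 1, 2 and 3.

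Col4a1 stood at 106, 41.9 and 59.6 normalized CPM in WT replicates 1, 2 and 3, at 90.0, 48.2 and 48.0 in Rps27-FLAG and at 112, 76.7 and 107 in Rps27l-FLAG. Replicate 1 was the highest clone of every line. Col4a2 moved with it, at 60.9, 22.2 and 30.0 in WT, 44.3, 21.2 and 25.2 in Rps27-FLAG and 67.8, 45.5 and 49.8 in Rps27l-FLAG. The fitted difference from replicate 1 was −0.93 in replicate 2 and −0.58 in replicate 3 for Col4a1 (log2, adjusted p = 0.00231) and −1.01 and −0.76 for Col4a2 (adjusted p = 0.000806).

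Fn1 went the other way. Its level was 2479, 3559 and 3804 normalized CPM in WT, 2691, 3472 and 3521 in Rps27-FLAG and 2128, 2595 and 2785 in Rps27l-FLAG, so that replicate 1 was the lowest clone of each line. The log2 differences from replicate 1 were 0.39 and 0.46 (adjusted p = 0.000204). Those of Lamc1 were 0.13 and 0.32 (adjusted p = 0.00912), of Nid1 0.15 and 0.44 (adjusted p = 0.013), of Lamb1 0.22 and 0.20 (adjusted p = 0.0217) and of Lama1 0.19 and 0.48 (adjusted p = 0.0298). Lama1 was no longer called by DESeq2 (adjusted p = 0.159). Differences did not pass for Lama5 (0.16 and −0.04, adjusted p = 0.0957), Hspg2 (0.02 and 0.04, adjusted p = 0.868) or Sparc (−0.02 and −0.03, adjusted p = 0.921). Hspg2, the longest of the genes, stayed between 1142 and 1345 normalized CPM in all 9 libraries.

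**Figure D3:**
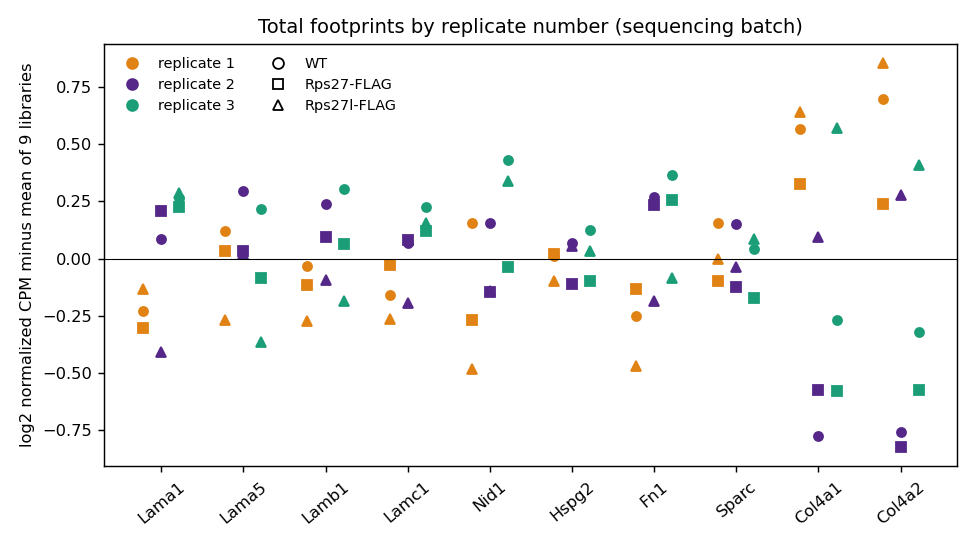
Log2 normalized CPM of each gene in the 9 total RPF libraries minus its mean over them, coloured by replicate number (sequencing batch) and shaped by line. Replicate 1 lies highest for Col4a1 and Col4a2 in each line and lowest for Fn1, and Hspg2 barely moves.

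Other matrix genes also differed by replicate number, in both directions. The counts below compare with 12.3% of all tested transcripts. Of 28 tested members of a list of other basement membrane and matrix proteins, 9 passed (32.1%). Higher in replicates 2 and 3 were Frem2, a Fraser-complex protein of embryonic basement membranes (log2 1.08 and 1.12, adjusted p = 7.53e-05), Col18a1, the core of a basement membrane proteoglycan (0.42 and 0.49, adjusted p = 0.000833), Fbln1 (0.31 and 0.58, adjusted p = 0.00331), Nid2 (0.19 and 0.21, adjusted p = 0.0244) and Thbs1 (0.63 and 0.12, adjusted p = 0.0391). The microfibril proteins Fbn1 and Fbn2, Ltbp3 and Col6a2 were lower. Among 19 matrix receptors 5 passed (26.3%), including Bcam, a laminin receptor (0.65 and 0.94, adjusted p = 0.000289), and Itga3, an integrin chain of laminin receptors (−0.40 and −0.68, adjusted p = 0.00403). In the list for matrix folding and export in the ER, 6 of 30 passed (20.0%). The collagen chaperone Serpinh1 (−0.37 and −0.53, adjusted p = 0.0122) and the prolyl isomerase Fkbp10 (−0.24 and −0.50, adjusted p = 0.0349) were lower. The lectin chaperones Canx (0.09 and 0.22, adjusted p = 0.0135) and Calr (0.06 and 0.30, adjusted p = 0.00567) and the disulfide isomerase Pdia4 (0.11 and 0.28, adjusted p = 0.0182) were higher, and the chaperone Hspa5 differed in sign (−0.09 and 0.12, adjusted p = 0.0456). Of 17 crosslinking and remodelling genes 5 passed (29.4%), 1 higher and 4 lower.

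Some markers of cell types also differed by replicate number. Of a mixed list of 15 endoderm markers, which cannot tell parietal from visceral endoderm, 14 were in the table and 5 passed the filter. Among these 5, the markers Dab2, Cubn and Amn differed between replicate numbers, all lower in replicates 2 and 3 by the fit over lines. Amn did not follow this in Rps27l-FLAG, at 9.48, 11.2 and 3.29 CPM in replicates 1, 2 and 3. The other two did not pass, Lrp2 at −0.07 and −0.15 (adjusted p = 0.238) and Hhex at 0.18 and 0.57 (adjusted p = 0.526). Cubn, an endocytic receptor of visceral endoderm, stood at 50.6, 10.3 and 17.3 CPM in WT, 28.7, 12.2 and 8.08 in Rps27-FLAG and 96.9, 45.3 and 45.0 in Rps27l-FLAG. Dab2, an adaptor protein of the same endocytic route, stood at 12.2, 4.70 and 7.50, at 10.7, 6.08 and 3.80, and at 28.6, 14.1 and 12.7. The highest of each was in Rps27l-FLAG replicate 1, as for both collagen chains. The sum over the endoderm list was 370 to 579 CPM in the 9 total libraries, and without Lrp2, which alone gave 341 to 431 CPM, it was 97.1, 27.7 and 36.2 in WT, 67.6, 34.7 and 28.4 in Rps27-FLAG and 166, 89.3 and 81.5 in Rps27l-FLAG. Cubn was the largest part of the sum without Lrp2 in every library. The defining regulators were near the floor, with median CPM of 1.67 for Gata4, 1.73 for Gata6, 1.1 for Sox17 and 0.289 for Foxa2, and 8 of the 14 had a median under 2. Their part in the collagen result was not tested. In a bulk sample a change in the number of cells of a type and a change in RNA per cell cannot be told apart.

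The label of the cells was borne out by 12 of 12 pluripotency markers, which passed the filter and summed to 4385 to 4966 CPM in the total libraries. Fibroblast markers summed to 54.3 to 114 CPM (2 of 11 passed the filter) and trophoblast markers to 47.3 to 91.3 (1 of 8 passed it). By replicate number, the fibroblast marker Thy1 was lower in replicates 2 and 3 (−0.80 and −1.31, adjusted p = 0.00118), and 4 of 12 pluripotency markers were called: Klf4 (−0.72 and −0.76, adjusted p = 0.00171) and Utf1 (−0.25 and −0.25, adjusted p = 0.0123) were lower, Tfcp2l1 (0.09 and 0.31, adjusted p = 0.0229) and Fgf4 (0.30 and 0.35, adjusted p = 0.0252) higher. Their part in the results on the matrix genes was not tested. No marker of these lists was at 0 in all total libraries.

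**Figure D4:**
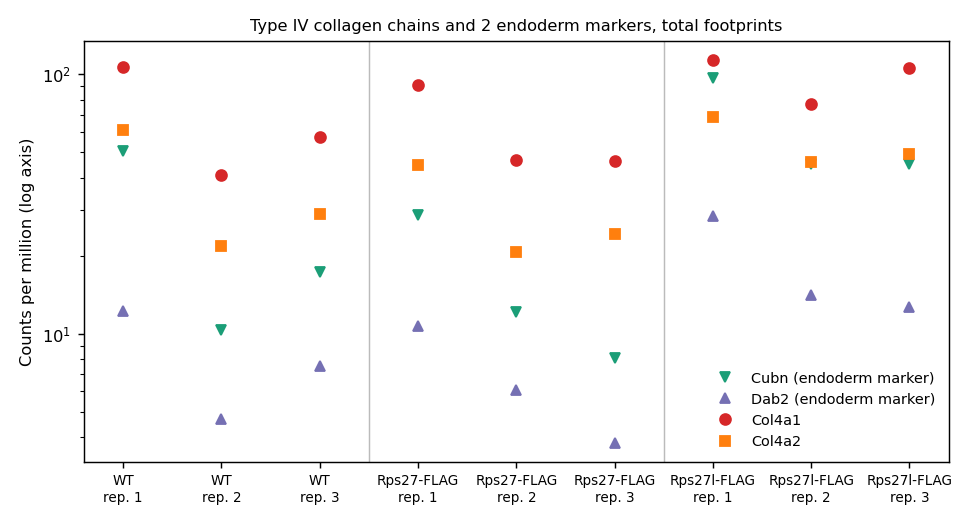
CPM (log axis) of Col4a1, Col4a2 and the endoderm markers Cubn and Dab2 in the 9 total RPF libraries. All 4 are highest in replicate 1 of each line. The other tested endoderm markers, Amn, Lrp2 and Hhex, are not drawn. In Rps27l-FLAG, Amn was highest in replicate 2. Lrp2 and Hhex did not differ between replicate numbers at an adjusted p under 0.05.

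The lines themselves were compared next, to ask whether tagging a clone changed the footprints it held before pull-down. In the fits without the replicate number, 0 of 10 genes were called in Rps27-FLAG against WT (0% of all tested transcripts), 0 in Rps27l-FLAG against WT (0%) and 0 in Rps27l-FLAG against Rps27-FLAG (0%). At an unadjusted p under 0.05, 4 members and 294 transcripts stood out in the first comparison, and DESeq2 and voom with limma also called 0 there. These comparisons share libraries: WT served in both of the first, and each tagged line in the third.

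Some genes nonetheless had libraries that did not overlap between lines. Sparc stood at 207, 206 and 191 normalized CPM in WT and at 174, 170.4 and 165 in Rps27-FLAG, a log2 difference of −0.25 (SE 0.0612, adjusted p = 0.999). Nid1 stood at 462, 463 and 560.3 in WT and at 345, 375 and 404 in Rps27-FLAG (−0.40, SE 0.171, adjusted p = 0.999), and Lama5 also did not overlap (−0.22). These 3 compare with 4.44% of all transcripts that lay lower without overlap in Rps27-FLAG. In Rps27l-FLAG, Lama5 stood at 692, 844 and 647 against 906, 1024 and 969.9 in WT (−0.41, adjusted p = 0.821) and Lamb1 at 553, 626 and 587 against 652, 788 and 825 (−0.36, adjusted p = 0.821), against 4.85% of all transcripts. Col4a2 (0.84) and Sparc (0.15) lay higher without overlap in Rps27l-FLAG than in Rps27-FLAG, against 5.73% of all transcripts.

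With the replicate number as a block the calls changed. This block joins separate clones by number. In replicate 2, deviations from the group means correlated at −0.0416 between Rps27l-FLAG and WT and at −0.167 between the tagged lines. Rps27-FLAG against WT kept 0 members (0.00992% of transcripts called). In Rps27l-FLAG against WT, 4 of 10 were called against 1.43% of transcripts: Fn1 fell by 0.38 on the log2 scale (adjusted p = 0.00358), Lama5 fell by 0.42 (adjusted p = 0.00539), Lamb1 fell by 0.35 (adjusted p = 0.00539) and Col4a2 rose by 0.61 (adjusted p = 0.0436). In Rps27l-FLAG against Rps27-FLAG, 3 of 10 were called against 1.36%: Col4a2 rose by 0.89 (adjusted p = 0.00743), Col4a1 rose by 0.70 (adjusted p = 0.0327) and Fn1 fell by 0.37 (adjusted p = 0.00465). These calls rested on single clones in part. Without WT replicate 3 only Fn1 remained called against WT, and without Rps27-FLAG replicate 1, 2 or 3 the second count was 1, 0 and 1. Beside the collagen chains, 2 of the 5 tested endoderm markers were also called higher in Rps27l-FLAG in both comparisons under the block.

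The second question was how ribosomes carrying each tagged protein were spread over these mRNAs, measured as log2 IP/total within a line. Values are relative to each fraction's own normalization, and the median over all tested transcripts was −0.01 for Rps27-FLAG and −0.03 for Rps27l-FLAG. The same 4 genes lay lowest in both lines: Lama1 came first (−0.46, SE 0.204 and −0.35, SE 0.222), followed by Lama5 (−0.25, SE 0.0644 and −0.20, SE 0.123), Lamb1 (−0.16 and −0.12) and Hspg2 (−0.14 and −0.11). Lamc1 (−0.04 and −0.01), Col4a1 (−0.05 and 0.01), Col4a2 (−0.06 and 0.04) and Nid1 (0.02 and 0.01) lay near 0. Fn1 lay at 0.07 and 0.13 and Sparc, the short one, at 0.22 (SE 0.0560) and 0.12. In fits without the clone, 0 of 10 were called in Rps27-FLAG (5.34% of transcripts lower, 0.327% higher) and 0 in Rps27l-FLAG (2.27% lower, 0.833% higher). The lowest adjusted p values were 0.0629 for Sparc and 0.066 for Lama5, both in Rps27-FLAG, where Lama5 and Hspg2 were lower without overlap (17.0% of transcripts) and Sparc higher (11.3%).

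Each IP library had its total counterpart from the same clone, and within clones the values were tight. Lama5 had a log2 IP/total of −0.24, −0.25 and −0.26 in the 3 Rps27-FLAG clones and −0.21, −0.20 and −0.21 in the Rps27l-FLAG clones. Lama1 had −0.58, −0.44 and −0.40, and −0.39, −0.40 and −0.30. Both alpha chains were below 0 in 6 of 6 clones, and so were Lamb1 (−0.21 to −0.10) and Hspg2 (−0.17 to −0.09). Fn1 had 0.00294, 0.12 and 0.05, and 0.14, 0.12 and 0.13. Sparc had 0.18, 0.25 and 0.24, and 0.14, 0.10 and 0.11, above 0 in every clone. The collagen chains, with 111 to 860 counts a library, scattered on both sides of 0.

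With the clone as a block, 5 genes were called in Rps27-FLAG, against 22.9% of transcripts lower and 18.3% higher. Lama1 fell by 0.47 (adjusted p = 2.83e-39), Lama5 fell by 0.25 (adjusted p = 1.78e-15), Lamb1 fell by 0.17 (adjusted p = 2.47e-07) and Hspg2 fell by 0.14 (adjusted p = 3.12e-05), while Sparc rose by 0.22 (adjusted p = 6.88e-09). In Rps27l-FLAG 6 were called, against 19.0% lower and 12% higher: the same 4 fell, Lama1 by 0.36 (adjusted p = 7.35e-13) and Lama5 by 0.20 (adjusted p = 8.96e-09), and Fn1 rose by 0.13 (adjusted p = 5.94e-05) and Sparc by 0.12 (adjusted p = 0.00721). Such small p-values come with a spread that is pooled over all transcripts, 3 clones a line remaining the sample.

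IP/total fell steadily with CDS length over the whole table. The median was 0.14 for Rps27-FLAG and 0.09 for Rps27l-FLAG for CDS up to 1000 nt, −0.01 and −0.03 for 1000 to 2000 nt, −0.14 and −0.13 for 2000 to 4000 nt, −0.31 and −0.25 for 4000 to 8000 nt and −0.48 and −0.40 above 8000 nt (135 transcripts). Each gene was therefore set beside tested transcripts of like CDS length (by the same 25% limit), which could include other genes of the 10. In both lines 9 of 10 lay above the median of their like-length transcripts, the exception being Lama1, at 0.04 and 0.01 below it. The median distance over the 10 genes was 0.248 for Rps27-FLAG and 0.215 for Rps27l-FLAG.

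Fn1 lay farthest from its like-length transcripts, 0.468 above their median in Rps27-FLAG and 0.472 above in Rps27l-FLAG. Its IP/total exceeded the 95th percentile of those 233 transcripts in both lines (0.0656 against 0.0555, and 0.127 against 0.0372), but with lengths within 1.1-fold it did so in Rps27-FLAG alone (0.127 against 0.130 in Rps27l-FLAG). Hspg2, at 13149 nt, lay 0.455 and 0.369 above the median of 48 transcripts. The collagen chains lay 0.251 and 0.248 (Col4a1) and 0.242 and 0.281 (Col4a2) above, with Col4a2 over the 95th percentile in Rps27l-FLAG (0.0382 against 0.0334), though not within 1.1-fold of length (0.0399). Lama5 (0.276 and 0.206), Nid1 (0.255 and 0.209) and Lamc1 (0.245 and 0.221) lay above by similar amounts, and Lamb1 (0.160 and 0.144) and Sparc (0.154 and 0.0765) by less. None lay under the 5th percentile.

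The tested form of this comparison removed the trend with CDS length from each library before the fit with the clone as a block. A rise here is a rise relative to that trend. The 10 genes were chosen with earlier results of these data known, so their counts beside all transcripts are no test of the group. 9 of 10 genes then rose in Rps27-FLAG, against 18.1% of transcripts higher and 13.0% lower: Fn1 by 0.47 (adjusted p = 2.01e-33), Hspg2 by 0.40 (adjusted p = 4.98e-32), Nid1 by 0.27, Lamc1 by 0.27, Col4a1 by 0.25 (adjusted p = 0.000171), Lama5 by 0.25, Col4a2 by 0.24 (adjusted p = 0.0203), Lamb1 by 0.17 and Sparc by 0.17. Lama1 did not pass (−0.02, adjusted p = 0.792). In Rps27l-FLAG 8 of 10 rose, against 14.3% higher and 7.84% lower, led by Fn1 (0.45, adjusted p = 1.72e-18) and Hspg2 (0.31, adjusted p = 3.87e-13). Lama1 (0.00394, adjusted p = 0.963) and Sparc (0.09, adjusted p = 0.0529) did not pass. Leaving out any 1 clone left 8 or 9 called for Rps27-FLAG and 8 for Rps27l-FLAG. Without the clone as a block and with the length trend removed, 0 were called in either line.

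**Figure D5:**
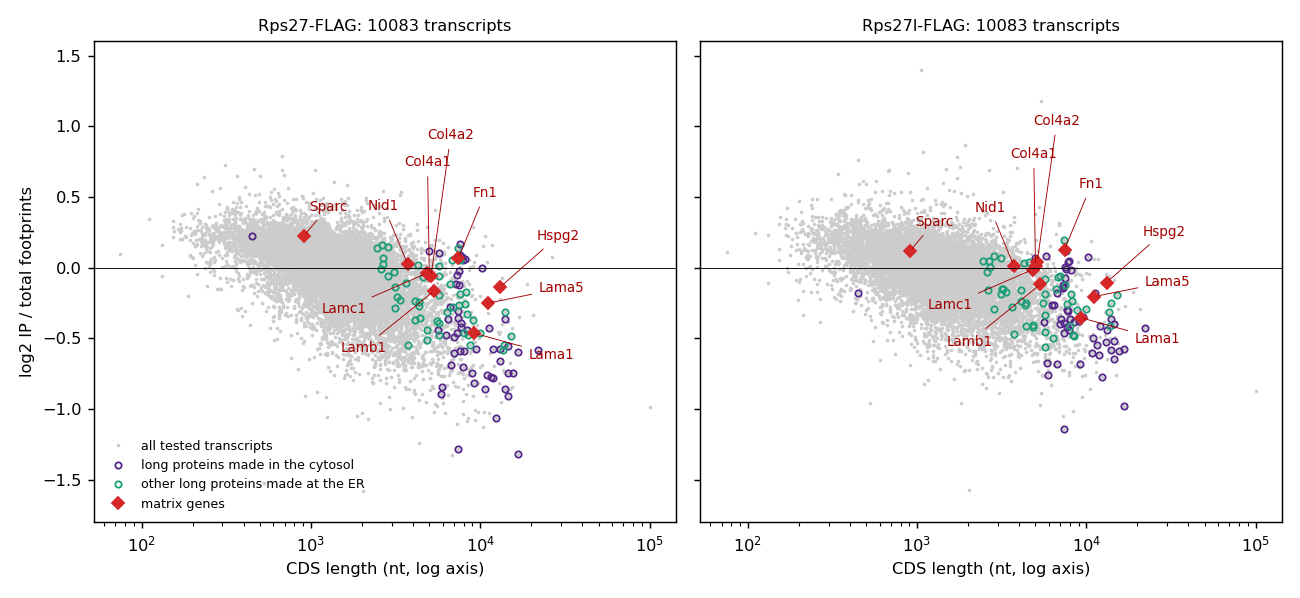
Log2 IP/total of 10083 tested transcripts against CDS length (log axis) in Rps27-FLAG and Rps27l-FLAG, with the 10 matrix genes, other long proteins made at the ER and long proteins made in the cytosol marked. The cloud falls with length, and the matrix genes other than Lama1 lie above its middle at their own length.

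Lists of other long proteins gave a further comparison, by counts and medians. The 9 members over 3000 nt had a median IP/total of −0.06 for Rps27-FLAG and −0.01 for Rps27l-FLAG. The 49 tested long membrane and secreted proteins made at the ER (median CDS 5682 nt) had medians of −0.24 and −0.23, with 6 and 3 called lower in the fits without the clone, among them the giant cadherin Fat1 (−0.55, SE 0.0892, adjusted p = 0.0121 in Rps27-FLAG) and the semaphorin receptor Plxna1 (−0.39 and −0.33). The 53 long proteins made in the cytosol (median CDS 7917 nt) had medians of −0.56 and −0.38, with 35 and 27 called lower. One of these 53, Ahnak, is listed with a transcript of only 450 nt of CDS and so went against the description as long. The largest falls were those of Mdn1, a ribosome assembly ATPase (−1.32, SE 0.0935, adjusted p = 0.00102 in Rps27-FLAG), the kinesin Cenpe (−1.29) and the DNA repair kinase Prkdc (−1.07). The lists differ in CDS length, so their medians are not a comparison at equal length. Calls in these fits without the clone depended on single clones: 0 transcripts of the whole table were called without Rps27-FLAG replicate 2 or 3, or without Rps27l-FLAG replicate 1 or 2.

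Among other matrix proteins a few fell in IP, in shares near the 5.34% and 2.27% of all transcripts called lower in the fits without the clone. Agrn, the heparan sulfate proteoglycan agrin (CDS 6102 nt), fell by 0.77 in Rps27-FLAG (SE 0.0639, adjusted p = 0.00118) and by 0.61 in Rps27l-FLAG (SE 0.0794, adjusted p = 0.0107). It is a partner of laminins in basement membranes, as perlecan is, and lay well below the −0.14 and −0.11 of Hspg2. Ltbp1, which holds latent TGF-beta in the matrix, fell by 0.60 in Rps27-FLAG (SE 0.114, adjusted p = 0.0229). These were 2 of 28 in Rps27-FLAG and 1 of 28 in Rps27l-FLAG, where the list medians were −0.21 and −0.05. Of 19 matrix receptors 1 fell, the integrin chain Itgav in Rps27-FLAG (−0.29, adjusted p = 0.0394). Of 30 genes for matrix folding and export 1 fell, the collagen export receptor Mia3 in Rps27-FLAG (−0.57, adjusted p = 0.00693), whose transcript in the table had a CDS of 2343 nt. Under the clone block 10 of these 30 rose and 6 fell in Rps27-FLAG, and 10 rose and 5 fell in Rps27l-FLAG, beside the 18.3% higher and 22.9% lower of all transcripts in the first line and the 12% and 19.0% in the second. No crosslinking gene was called (medians −0.23 and −0.21, 17 tested). The pluripotency markers, whose CDS are short, had medians of 0.16 and 0.18, and Zfp42 rose in Rps27l-FLAG (0.23, adjusted p = 0.0447).

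The difference in IP/total between the 2 tagged lines was tested directly, with clone within line in the fit. 0 of 10 genes were called (0.466% of transcripts higher and 0.0992% lower in Rps27l-FLAG). The most distant were Lama1, whose IP/total was 0.11 higher in Rps27l-FLAG (SE 0.0504, adjusted p = 0.319), and Sparc, at −0.10 (SE 0.0495, adjusted p = 0.377). Fn1 differed by 0.07 (SE 0.0388, adjusted p = 0.513) and Hspg2 by 0.03 (SE 0.0379, adjusted p = 0.817). The 10 values ran from −0.10 to 0.11. A difference of this size was not called at 3 clones a line, which does not show that the lines were alike.

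The genes whose total footprints most resembled the mean pattern of the 10 over the 9 total libraries were, among 8054 compared, the Hedgehog transcription factor Gli2 (Pearson r 0.969 over 9 libraries), the heparan sulfate polymerase Ext2 (0.965), the transporter-family protein Mfsd10 (0.958), the sorting receptor Sorl1 (0.949) and the ER cyclophilin Ppib (0.944). Nid1 followed the mean of the 10 most closely (0.943), and Col4a1 (−0.27) and Col4a2 (−0.31) ran against it. These are descriptions of 9 libraries that share batches.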

How the data were processed

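Ribosome footprints were sequenced from 15 libraries of 9 mouse embryonic stem cell clones. The deposited values are whole-number counts of footprints per transcript: the authors trimmed reads (cutadapt 2.4), aligned them with Bowtie2 2.3.4.3, removed PCR duplicates by molecular identifier (UMI-tools 1.0.1, versions as the submitters' processing notes give them) and counted positions on the CDS without its first 15 and last 5 codons, on 1 transcript per gene. Gene models were matched by transcript to GENCODE M21 (GRCm38), and 4 transcripts had no entry. 13 mitochondrial transcripts were left out of the normalization and the tests, and 0 sample columns were unused. The library totals, the shares of a library, the CPM of the filter and the CPM of the markers included them. Reads counted per transcript can be split between isoforms, which the table does not resolve.

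Counts of the 10085 transcripts that passed the filter (CPM above 2, 14 or more of the 15 libraries) were normalized by TMM, separately for IP and total libraries, and tested with edgeR 4.0.16 (R 4.3.3, quasi-likelihood) with Benjamini-Hochberg adjustment over all of them and a threshold of 0.05. For the difference in IP/total between lines, an absolute log2 fold change over 0.25 was also required and Tmod3 was left out. The design matrices for lines and fractions, and the adjusted threshold, were those of the study's methods. Of these designs, only that for the difference in IP/total held a replicate term. The fit between replicate numbers, with line and replicate number as terms, was added here. The methods used voom and limma, which was run here as an alternative (limma 3.58.1) and called the same number of the 10 genes in each comparison. Other alternatives were DESeq2 1.42.0, other normalizations and filters, a loess removal (span 0.5) of the trend with CDS length, the replicate number as a block and each clone left out. The script was tested on simulated data. Groups came from the labels, and clone identity and sequencing batch from the study's sample table.

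The pairing of IP and total libraries by clone was checked by the correlation of their deviations from the group means, which was 0.798, 0.483 and 0.545 in Rps27-FLAG and 0.59, 0.549 and 0.723 in Rps27l-FLAG. Same-numbered total libraries of different lines, which shared a batch, correlated at −0.167 to 0.719, and the values below 0 were those of Rps27l-FLAG replicate 2. Libraries of a condition differed by more than sampling noise (chi-square per degree of freedom 1.78 to 10.3 over 15 pairs), so none was a copy of another.

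Genes named beside the 10 were, per list and comparison, up to 3 higher and 3 lower with the largest change among those called whose clones did not overlap, and the 5 transcripts of at least 10 CPM most like the mean of the 10. For the replicate numbers, list genes were chosen for the text after their values were seen. The 10 genes and the lists were chosen with earlier results of these data known. Counts limit the precision most for Col4a1 and Col4a2 (111 to 860 counts a library), against 11894 to 26778 for Fn1.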

Additional observations from a re-analysis of the deposited data

Results flagged for a closer look

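The comparison lists held transcripts whose IP/total differed between the tagged lines by a direct test of the difference: 10 of 53 tested in the list of long cytosolic proteins and 1 of 49 in that of other long ER proteins were higher in Rps27l-FLAG, against 0.466% of all tested transcripts, and 0 were lower. The ER member was Lrp1, a large endocytic receptor, higher by 0.27 on the log2 scale (SE 0.0681, adjusted p = 0.0149). The cytosolic members with the largest differences were Cenpf, higher by 0.36 (SE 0.0434, adjusted p = 6.08e-10), Mdn1 by 0.34 (SE 0.0413, adjusted p = 1.24e-09) and Tpr by 0.32 (SE 0.0396, adjusted p = 1.24e-09). No matrix gene of the 10 was called in this test. The lists were chosen with earlier results of these data known, so their counts beside 0.466% are no test of the lists. Above 8000 nt the median IP/total was −0.48 in Rps27-FLAG and −0.40 in Rps27l-FLAG. Over all tested transcripts this test called 57, against 28 with the length trend removed and 0 without the replicate block. Whether length gave the differences was not tested.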

How the results depend on the processing

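For the 10 genes, 45 values of the chain ratios with a clone left out, 5 with full CDS lengths and 20 densities under other length or normalization rules moved by less than the clone spread, as did the clone spreads themselves. Among single-gene differences, 309 kept their direction and side of the threshold under other settings, 28 became called and 26 changed sign. Matched on mean CPM alone, the median spread of like transcripts fell to 0.0929 for Lama1, 0.0794 for Lama5 and 0.0745 for Hspg2. The count of members called went from 0 to 4 (Rps27l-FLAG against WT) and 3 (Rps27l-FLAG against Rps27-FLAG) in total RPFs with the replicate block, and from 0 to 5 (Rps27-FLAG) and 6 (Rps27l-FLAG) in IP against total. It changed no other count of members called. With the replicate block and the length trend removed, 9 and 8 were called in IP. DESeq2 called 2 (Lama5 and Sparc) and a fit of all 12 tagged libraries 1 (Sparc) in Rps27-FLAG. Leaving out a clone gave 0 to 3 there, the 3 (Lama1, Lama5 and Sparc) without Rps27-FLAG replicate 1.

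Fits with the replicate block and 1 clone left out, added after the data were seen, called 1 to 5 members (Rps27l-FLAG against WT) and 0 to 4 (Rps27l-FLAG against Rps27-FLAG) in total RPFs, 5 to 6 in each IP comparison, and 8 to 9 (Rps27-FLAG) and 8 (Rps27l-FLAG) with the length trend also removed. Between replicate numbers, 6 to 8 of 10 were called: without a filter Lama5 was added, and DESeq2 lost Lama1.

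Values that changed sign did so mostly because removing the length trend raised long transcripts. Without and with the replicate block, in Rps27-FLAG, these became 0.25 and 0.25 (Lama5), 0.17 and 0.17 (Lamb1), 0.27 and 0.27 (Lamc1), 0.27 and 0.25 (Col4a1), 0.26 and 0.24 (Col4a2) and 0.40 and 0.40 (Hspg2). In Rps27l-FLAG they became 0.00866 and 0.00394 (Lama1), 0.19 and 0.19 (Lama5), 0.15 and 0.15 (Lamb1), 0.24 and 0.24 (Lamc1) and 0.31 and 0.31 (Hspg2). Lamc1 in Rps27l-FLAG became 0.0199 with DESeq2, 0.0203 with its size factors in edgeR and 0.00945 with TMM over all 15 libraries, and Nid1 became −0.00515 with voom. These were values near 0. With a clone left out, Col4a2 ranged from −0.107 to 0.0435 in Rps27-FLAG, and in Rps27l-FLAG Col4a1 ranged from −0.0621 to 0.0936, Col4a2 from −0.00946 to 0.0909 and Nid1 from −0.0117 to 0.0258. Within 1.1-fold of CDS length, the distance from like transcripts moved to 0.394 (Lama5) and 0.267 (Nid1) in Rps27-FLAG and to 0.285 (Lama5), 0.437 (Fn1) and 0.325 (Hspg2) in Rps27l-FLAG, and all 10 genes then lay above the median in both lines. In that window Fn1 and Col4a2 no longer exceeded the 95th percentile in Rps27l-FLAG, while Hspg2 exceeded it in Rps27-FLAG (−0.137 against −0.226).

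Over the whole table, IP against total called 572 transcripts in Rps27-FLAG against 28 with the length trend removed, 4154 with the replicate block, 3135 with both, 883 with all 12 libraries and 0 to 1817 with a clone left out. In Rps27l-FLAG it called 313 against 9, 3128, 2236 and 0 to 319 in the same settings other than the 12 libraries. The difference in IP/total between lines called 57 against 11 (DESeq2), 28 (length trend removed), 0 (no replicate block) and 150 (no fold limit), and the replicate numbers 1239 against 2217 without a filter. In total RPFs the replicate block called 1, 144 and 137, and leaving out Rps27l-FLAG replicate 2 called 1 in each of its 2 comparisons. Causes were not tested. Depth limited Col4a1 and Col4a2 most.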
